A study of Homo sapiens with 10 samples.

Results

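The 32 genes described here encode enzymes and regulators that make cholesterol and fatty acids. They were chosen by name from the 58735 genes of the count table, for what their products do, with earlier results of these data known. All 32 passed the filter on low counts in each comparison. They comprise 7 genes of the mevalonate pathway, 11 of the squalene and sterol steps, 5 of the sterol regulatory element-binding protein (SREBP) system, 1 sterol carrier, 4 genes of fatty acid synthesis and 4 of fatty acid elongation and desaturation. RNA was sequenced from A253, a human cell line from a squamous cell carcinoma of the salivary gland (SG-SCC), grown in DMEM with serum. The control cells carried a guide RNA against dTomato. The clones Cl1 and Cl10 carried guide RNAs that flank exon 2 of DUSP1, a phosphatase that switches off MAP kinases. The study describes them as heterozygous for that deletion although the labels call them knockouts. It also reports that western blots showed no DUSP1 protein in either clone. Both arms received Cas9 and were selected with antibiotics. Each group had 2 libraries, and each clone grew from a single cell, so the effect of the deletion and the history of that clone cannot be told apart.

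Cells make cholesterol from acetyl-CoA through mevalonate, isoprenoids and squalene, followed by a long series of sterol steps, and they make fatty acids from the same acetyl-CoA through malonyl-CoA. SREBP transcription factors, encoded by SREBF1 and SREBF2, switch on most of these genes. They are carried by SCAP to be cut when membranes are poor in sterol, and are held back by the INSIG proteins when sterol is plentiful, so that the genes of the pathway often move together. In squamous epithelia both pathways also feed the lipids of the surface barrier.

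Library totals ran from 47016495 to 70986593 counts, and the members took 0.784% to 1.01% of them. Member counts ranged from 403 to 202636 in single libraries. DUSP1 itself had 744 and 635 in the control, 304 and 354 in Cl1, and 495 and 415 in Cl10, as counts normalized for library size and composition (TMM) and scaled to the mean library total. It was lower in Cl1 (log2 fold change -1.07 ± 0.15, SE; adjusted p = 0.000292, edgeR) and in Cl10 (-0.59 ± 0.13; adjusted p = 0.0113, edgeR). The 7 epithelial markers summed to between 11175 and 13011 CPM (counts scaled to the library's total) in every library, with KRT5 and KRT14 giving the largest parts. Single epithelial markers moved with the clones: CDH1 (E-cadherin) rose in Cl1 (0.84 ± 0.13, adjusted p = 0.000733, edgeR) and in Cl10 (0.35 ± 0.099, adjusted p = 0.0262). The paired keratins KRT8 and KRT18 fell in Cl10 (-1.33 ± 0.10 and -0.85 ± 0.12, adjusted p = 0.000161 and 0.00185, edgeR). That is 1 of 7 higher and 0 lower in Cl1, beside 12.4% and 12.8% of all genes tested. In Cl10 it is 1 higher and 2 lower, beside 20.6% and 21.8%. Between the clones 5 of the 7 were lower and 1 higher in Cl10, beside 24.1% and 24.9%. The 5 leukocyte markers summed to 6.50 and 7.21 CPM in the control, 13.3 and 10.3 in Cl1, and 10.5 and 9.06 in Cl10, and CD14 was higher in both clones. The 5 fibroblast markers summed to 32.5 and 27.5 CPM in the control, 29.4 and 31.8 in Cl1, and 19.03 and 19.23 in Cl10, where COL1A1 fell (-0.67 ± 0.098, adjusted p = 0.00192, edgeR). Of the endothelial markers, VWF rose in Cl1 and CDH5 in Cl10, KDR had no count in any library, and the list summed to between 2.74 and 7.64 CPM. Adipocyte markers summed to under 1 CPM in each library. Only 2 of the 5 leukocyte and 2 of the 5 fibroblast markers passed the filter on low counts and were tested. Of the 4 endothelial markers, 1 was tested in Cl1 and 2 in Cl10, and of the 4 adipocyte markers 1 in each. The part of these marker changes in the members' values was not tested. In RNA from a whole culture, a change in the share of cells and a change of RNA per cell cannot be told apart.

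SCD, the desaturase that puts the first double bond into saturated fatty acids, had the highest level of the members. Its control mean was 1668 on a per-length scale (counts per kilobase of exon, scaled like CPM to the total of the library), and it was 1925 in Cl1 and 2197 in Cl10. SCD alone held 31.9% of the summed per-length level of the 32 genes in the control. FASN, fatty acid synthase, followed at 460.5, ahead of FDFT1, which makes squalene, at 378 and ACLY, which makes cytosolic acetyl-CoA from citrate, at 365. FDFT1 and ACLY lay close together, and the control libraries of FASN overlapped both. The lowest per-length levels in the control were those of HSD17B7, a sterol ketone reductase, at 9.32 and of FADS2, the delta-6 desaturase, at 5.59. This order depends on the length used, all annotated exon bases of a gene, 4784 for HSD17B7 and 10553 for FADS2. By normalized counts HSD17B7 was the lower of the pair in the control, at 694 and 778 against 914 and 1033. SREBF1 stood at 239 and SREBF2 at 133 in the control, and SREBF1 was above SREBF2 in each of the 6 libraries.

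**Figure D1:**
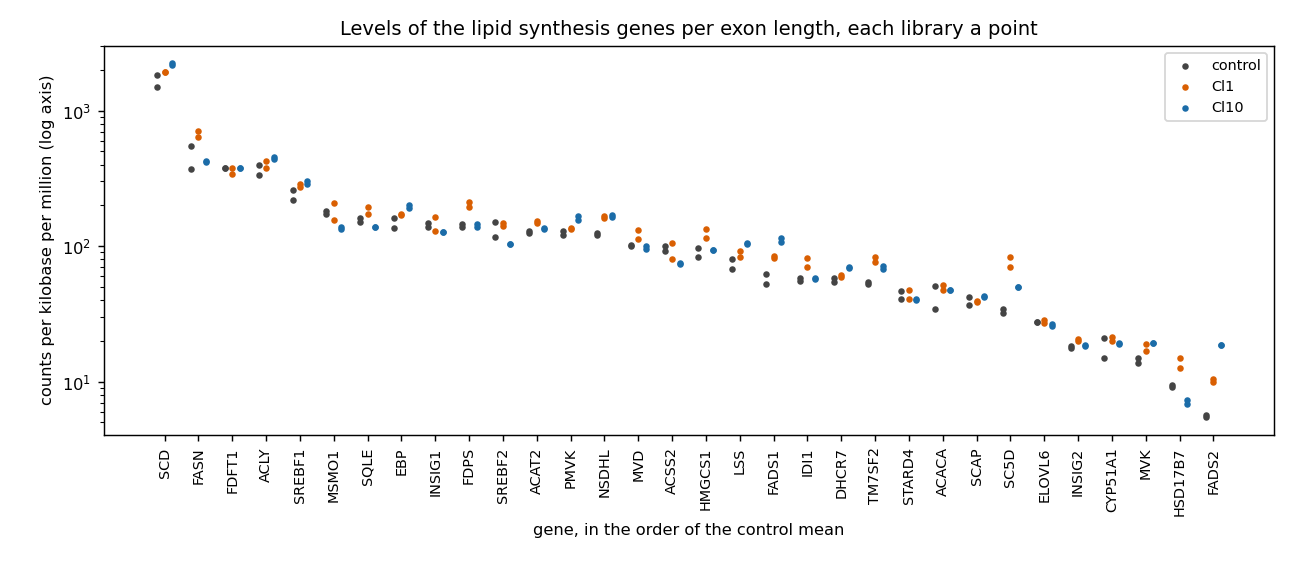
Per-length level of each of the 32 genes in each library, in counts per kilobase of exon scaled to the library's total, on a log axis, in the order of the control mean. Each point is 1 library, with 2 per group. SCD lies above the other genes in all 6 libraries, and FADS2, the lowest in the control, separates into 3 levels.

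Of the 32 genes, 28 were matched to promoter sequences, as 39 RefSeq windows of 300 bases (GRCh38.p14) from 250 before to 50 after a transcription start. The genes without a match were ACAT2, FASN, SQLE and FDFT1. 4 motifs were searched on both strands in these windows and in all 35116 promoter windows. The letters CCAAT, bound by NF-Y, a known partner of SREBP, stood in 25 of 39 windows (64.1%) and in 34.61% of all promoters. The letters GGGCGG, the GC box of SP1, stood in 35 (89.7%) against 44.95%. The E-box CACGTG stood in 5 windows (12.8%) against 7.26%. The core of the sterol regulatory element, searched as TCACNCCAC, stood in 1 window (2.6%), that of SREBF2, against 1.13% of all promoters. Other forms of this element were not searched, and a match of letters is not a bound site. Windows of the same gene can overlap, so that 1 site can count in more than 1 window. By gene, CCAAT stood in at least 1 window of 21 of 28, beside 39.7% of all genes with a promoter window. GGGCGG stood in 27 beside 48.3%, CACGTG in 4 beside 8.8% and TCACNCCAC in 1 beside 1.4%. The 200 bases before the first listed start of 6 genes are given below, 5′ to 3′ on the gene's strand, which was the plus strand for all 6. They were chosen because the results turn on these genes and because they span the range from 4 CCAAT boxes to none. Capitals mark a CCAAT box on either strand and, in SREBF2, also the sterol element.
SREBF2: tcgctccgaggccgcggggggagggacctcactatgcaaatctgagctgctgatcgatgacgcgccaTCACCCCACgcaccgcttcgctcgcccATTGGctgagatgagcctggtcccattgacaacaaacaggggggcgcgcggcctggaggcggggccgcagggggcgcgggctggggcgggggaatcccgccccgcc
FDPS: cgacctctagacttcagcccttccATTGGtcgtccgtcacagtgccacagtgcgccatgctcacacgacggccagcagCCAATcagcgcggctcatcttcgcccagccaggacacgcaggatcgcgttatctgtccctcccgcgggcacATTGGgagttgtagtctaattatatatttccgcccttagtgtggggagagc
SC5D: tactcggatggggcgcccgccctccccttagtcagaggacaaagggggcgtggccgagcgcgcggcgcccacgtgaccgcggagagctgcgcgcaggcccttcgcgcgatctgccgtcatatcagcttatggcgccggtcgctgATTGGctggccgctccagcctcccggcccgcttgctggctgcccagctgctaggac
HSD17B7: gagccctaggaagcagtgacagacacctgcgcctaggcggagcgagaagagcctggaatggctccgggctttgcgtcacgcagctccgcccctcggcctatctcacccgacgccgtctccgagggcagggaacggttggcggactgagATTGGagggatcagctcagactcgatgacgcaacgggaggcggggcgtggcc
MSMO1: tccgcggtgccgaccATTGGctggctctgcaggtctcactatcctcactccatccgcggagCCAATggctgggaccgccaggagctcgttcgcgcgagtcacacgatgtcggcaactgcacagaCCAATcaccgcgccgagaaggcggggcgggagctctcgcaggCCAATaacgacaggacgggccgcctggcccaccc
FADS2: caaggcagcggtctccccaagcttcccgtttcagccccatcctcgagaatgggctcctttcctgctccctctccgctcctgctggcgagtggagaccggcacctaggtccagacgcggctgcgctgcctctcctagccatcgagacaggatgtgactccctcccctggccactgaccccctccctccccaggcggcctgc
These stretches lie at chr22:41832905-41833104, chr1:155308666-155308865, chr11:121292571-121292770, chr1:162790502-162790701, chr4:165327469-165327668 and chr11:61816003-61816202. SREBF2, whose promoter is a known target of its own product, had its sterol element at position -133 and the CCAAT box at position -106 from the start. MSMO1 held 4 CCAAT boxes in this stretch, FDPS 3, SC5D and HSD17B7 1 each, and FADS2 0.

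In Cl1, 11 of the 32 genes of cholesterol and fatty acid synthesis rose and 0 fell against the control (adjusted p under 0.05, edgeR). They came from the mevalonate pathway (HMGCS1, MVK, IDI1, FDPS), the sterol steps (TM7SF2, NSDHL, HSD17B7, SC5D), fatty acid synthesis (FASN) and desaturation (FADS1, FADS2). That is 34.4% higher, beside 12.4% higher and 12.8% lower among all 20153 genes tested. At an unadjusted p under 0.05, 15 were higher and 0 lower, and DESeq2 called 10 higher and 0 lower. The median log2 fold change of the members was 0.26, against -0.013 for all genes tested, and 30 of the 32 values were above 0. Only SC5D also passed a log2 fold change of 1, a mark that 4.27% of all genes passed in that direction. Of the 11 calls, 8 were past the threshold in every refit with 2 libraries per group. When 1 library of a group was left out, the lone library was assumed to vary like the others, so counts of calls are not given. Log2 fold changes without Cl1 replicate 1 and without Cl1 replicate 2 were 0.58 and 0.53 for FDPS and 0.55 and 0.58 for FADS1. They were 0.43 and 0.47 for NSDHL, 0.63 and 0.56 for FASN, 0.59 and 0.43 for HMGCS1, 0.52 and 0.37 for IDI1, and 0.39 and 0.30 for MVK. TM7SF2, SC5D and FADS2 were past the threshold in all 12 refits. HSD17B7 was lost without replicate 2, and HMGCS1, MVK, IDI1, FDPS, NSDHL, FASN and FADS1 were lost when either Cl1 library was left out.

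In Cl10 the same genes split, with 5 higher and 7 lower than in the control. These shares, 15.6% and 21.9%, were near those of all 19875 genes tested, 20.6% and 21.8%, and so are no result about these genes as a group. Their median log2 fold change was -0.056, against -0.011 for all genes. FADS2 alone also passed a log2 fold change of 1, as 5.98% of all genes did in that direction. Of the 12 calls, 8 were past the threshold in every refit with 2 libraries per group. Counts of calls with 1 library left out are not given, as for Cl1. Log2 fold changes without Cl10 replicate 1 and without Cl10 replicate 2 were -0.52 and -0.52 for ACSS2 and -0.51 and -0.53 for MSMO1. They were -0.51 and -0.49 for SREBF2, -0.31 and -0.31 for SQLE, -0.32 and -0.31 for INSIG1, and -0.25 and -0.25 for STARD4. LSS stood at 0.33 and 0.39, NSDHL at 0.30 and 0.29, and SC5D at 0.43 and 0.46. FADS1 and FADS2 were past the threshold in all 12 refits, HSD17B7 was lost without Cl10 replicate 2, and the other 9 calls were lost when either Cl10 library was left out.

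Compared directly, 20 of the 32 genes were lower in Cl10 than in Cl1 and 2 were higher. That is 62.5% lower and 6.25% higher, beside 24.1% and 24.9% of all 19818 genes tested. The members' median log2 fold change was -0.29, against -0.0012 for all genes, and 25 of the values were below 0. HSD17B7 was the gene past a log2 fold change of 1, as 6.28% of all genes were in that direction. Of the 22 calls, 18 were past the threshold in every refit with 2 libraries per group. Log2 fold changes without Cl10 replicate 1 and without Cl10 replicate 2 were -0.14 and -0.15 for NSDHL and -0.27 and -0.28 for CYP51A1. They were -0.25 and -0.22 for ACACA and 0.28 and 0.23 for FADS1. NSDHL, CYP51A1, ACACA and FADS1 were lost when either Cl10 library was left out, INSIG2 without replicate 2 and ELOVL6 without replicate 1. The 3 comparisons share libraries in pairs, so a high Cl1 value enters both the first and the third.

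**Figure D2:**
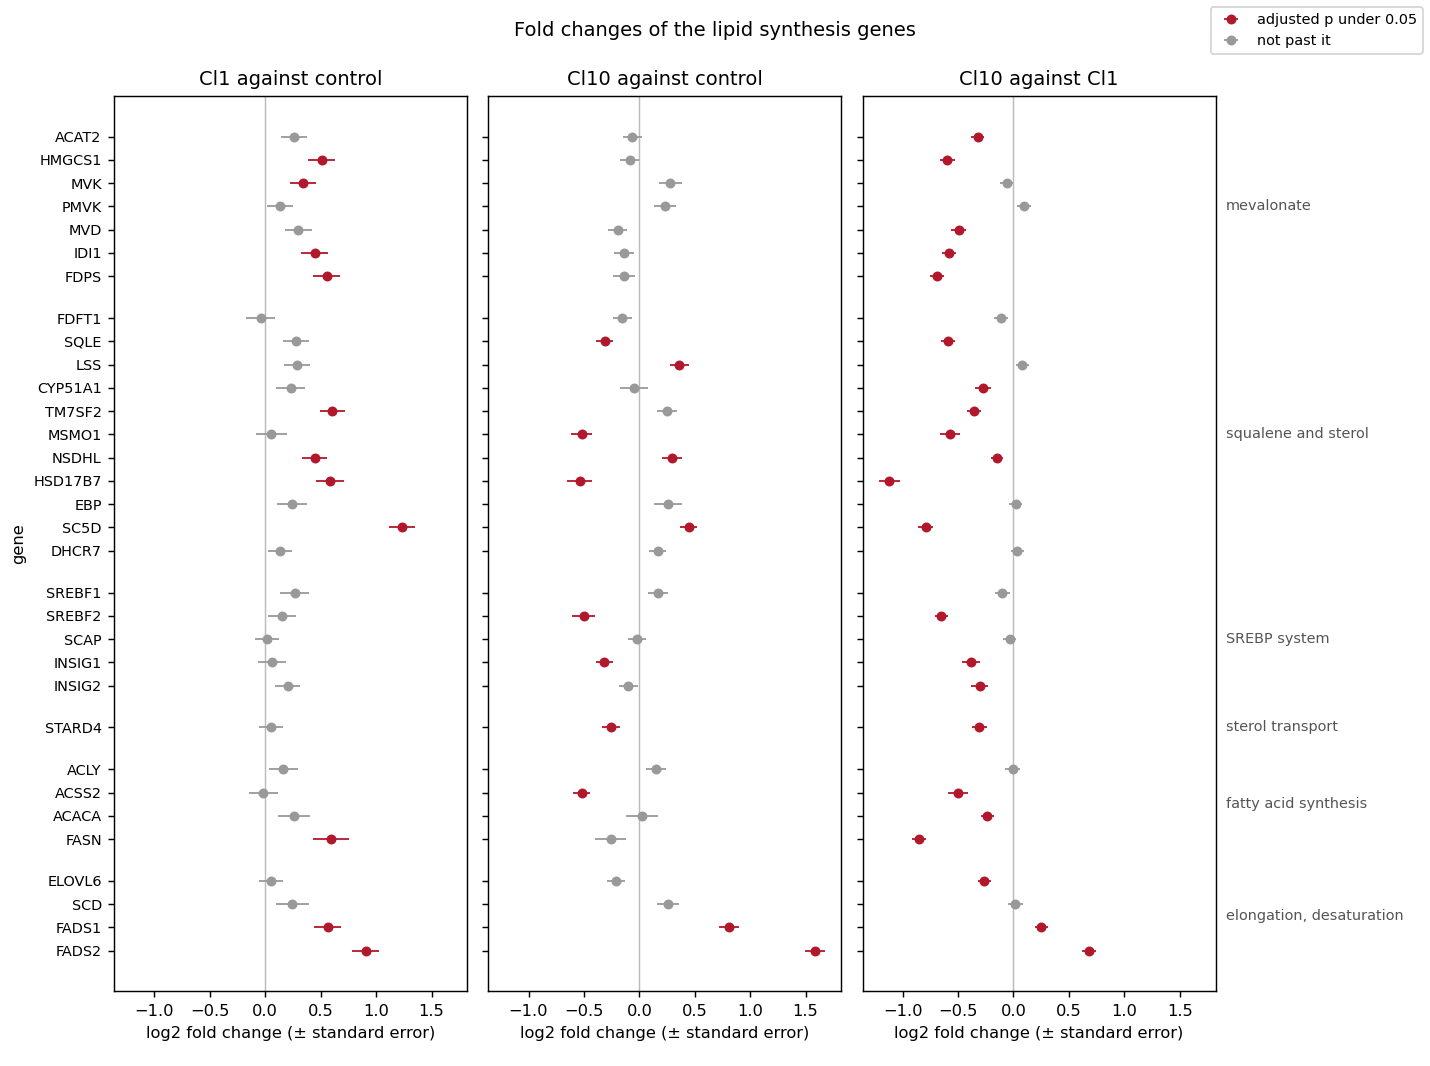
Log2 fold change of each gene with its standard error, for Cl1 against control, Cl10 against control and Cl10 against Cl1, each from 4 libraries. Red points passed an adjusted p of 0.05 in edgeR's quasi-likelihood test. All red points lie right of 0 in the first panel and on both sides in the second. In the third they lie left of 0, except those of FADS1 and FADS2.

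The mevalonate pathway turns acetyl-CoA into the isoprenoid farnesyl diphosphate. Of its 7 genes, HMGCS1, MVK, IDI1 and FDPS rose in Cl1 and none fell. The 57.1% higher stands beside 12.4% of all genes tested. In Cl10 none of the 7 passed the test in either direction, beside 20.6% higher and 21.8% lower among all genes. Between the clones, 5 were lower in Cl10, or 71.4% beside 24.1% of all genes. The medians were 0.34, -0.087 and -0.49 for the 3 comparisons. Their summed normalized counts were 38728 and 41651 in the control, 51745 and 55242 in Cl1, and 38738 and 37028 in Cl10, so both Cl1 libraries lay above the rest.

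HMGCS1, which makes HMG-CoA and so feeds the committed step of the pathway, had normalized counts of 10189 and 9406 in the control, 13173 and 14696 in Cl1, and 9306 and 9076 in Cl10. Both Cl1 libraries stood apart from the others, while the Cl10 libraries lay just under the lower control. The log2 fold change was 0.51 ± 0.12 in Cl1 (adjusted p = 0.00923, edgeR) and -0.087 ± 0.084 in Cl10 (adjusted p = 0.434), and -0.60 ± 0.066 between the clones (adjusted p = 1.15e-05). FDPS, farnesyl diphosphate synthase, had 8099 and 9273 in the control, 12514 and 12962 in Cl1, and 8167 and 7557 in Cl10. The Cl1 libraries did not overlap the control, and the Cl10 libraries overlapped it. FDPS rose 1.47-fold in Cl1 (log2 0.55 ± 0.12, adjusted p = 0.00563, edgeR), and Cl10 differed from Cl1 by -0.69 ± 0.062 (adjusted p = 1.96e-06).

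IDI1, the isomerase that readies the isoprenoid unit for chain growth, had 3775 and 4331 in the control, 5211 and 5811 in Cl1, and 3730.3 and 3605 in Cl10. As for FDPS, only the Cl1 libraries left the range of the control by a clear margin. It was higher in Cl1 by 0.45 ± 0.12 (adjusted p = 0.0163, edgeR) and lower in Cl10 than in Cl1 (-0.58 ± 0.066, adjusted p = 1.29e-05). MVK, mevalonate kinase, had 1957 and 2334 in the control, 2636 and 2798 in Cl1, and 2635 and 2552 in Cl10. Both clones lay above the control, Cl1 at 0.34 ± 0.12 (adjusted p = 0.0488, edgeR) and Cl10 at 0.28 ± 0.10 (adjusted p = 0.0612), and their difference did not pass the test (-0.062 ± 0.062). The MVK call in Cl1 was lost in 7 of 12 refits, among them DESeq2 (adjusted p = 0.0639). MVD, which makes isopentenyl diphosphate, passed only between the clones, at -0.49 ± 0.066 (adjusted p = 5.66e-05, edgeR). ACAT2, which condenses acetyl-CoA, also passed there, at -0.32 ± 0.056 (adjusted p = 0.000418, edgeR). Its 50 nearest tested genes had a median of -0.52 between the clones, and with that subtracted ACAT2 passed in the opposite direction, at 0.20 (adjusted p = 0.0129, edgeR). PMVK, phosphomevalonate kinase, did not pass in the 3 comparisons, with values of 0.13, 0.23 and 0.096, but passed in 2 of them with its neighbours subtracted. For ACAT2, 17.2% of the exon bases lie opposite TCP1 on the other strand, and HMGCS1 (37.7%), FDPS (18.6%) and IDI1 (15.0%) overlap noncoding genes in the same way. The strand setting of the counting is not given in the sources used here.

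The squalene and sterol steps lead from farnesyl diphosphate to cholesterol. Of their 11 genes, in Cl1, TM7SF2, NSDHL, HSD17B7 and SC5D rose and none fell, or 36.4% higher beside 12.4% of all genes tested. In Cl10, LSS, NSDHL and SC5D rose and SQLE, MSMO1 and HSD17B7 fell. These 27.3% each way were near the 20.6% and 21.8% of all genes, so the split is no result about these steps as a group. Cl10 was lower than Cl1 for 7 of the 11, or 63.6% beside 24.1% of all genes. Medians were 0.28, 0.17 and -0.28.

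SC5D, the sterol desaturase of a late step (chr11:121292681-121313410, plus strand), had 5427 and 5599 in the control, 12207 and 13707 in Cl1, and 7568 and 7379.6 in Cl10. The groups formed 3 separate levels, with the control lowest and Cl1 highest. The rise was 2.35-fold in Cl1 (log2 1.23 ± 0.12, adjusted p = 1.80e-05, edgeR) and 1.36-fold in Cl10 (0.44 ± 0.078, adjusted p = 0.00409). Cl10 differed from Cl1 by -0.79 ± 0.067 on the log2 scale (adjusted p = 1.24e-06, edgeR). DHCR7, which acts on the sterol that SC5D makes, gave 0.13, 0.17 and 0.035 for the 3 comparisons, none past the test. Its libraries ranged from 6349 to 7256 normalized counts.

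HSD17B7, the ketone reductase of C4 demethylation (chr1:162790702-162812823, plus strand), had 694 and 778 in the control, 1034 and 1170.1 in Cl1, and 527 and 482 in Cl10. Cl1 lay above and Cl10 below both control libraries. The log2 fold change was 0.58 ± 0.13 in Cl1 (adjusted p = 0.00558, edgeR) and -0.54 ± 0.11 in Cl10 (adjusted p = 0.00815), so Cl10 held 0.460 times the Cl1 level (-1.12 ± 0.097, adjusted p = 1.48e-06). A pseudogene, HSD17B7P2, held 525 counts over the 6 libraries beside 4693 for HSD17B7, and how reads were split between such copies is not given in the sources used here. MSMO1, the methyl oxidase, had 7763 and 8945 in the control, 7590.4 and 9721 in Cl1, and 5782 and 5813 in Cl10. The Cl1 libraries spanned the control and Cl10 lay below it, at -0.52 ± 0.094 (adjusted p = 0.00463, edgeR), against 0.053 ± 0.14 in Cl1 (adjusted p = 0.819). NSDHL, the dehydrogenase of the same complex, had 3818 and 4317 in the control, 5587 and 5464 in Cl1, and 4956 and 4977 in Cl10. All 4 clone libraries lay above the control. It rose in Cl1 (0.44 ± 0.11, adjusted p = 0.0130, edgeR) and in Cl10 (0.29 ± 0.089, adjusted p = 0.0347), and its clone difference of -0.15 ± 0.056 (adjusted p = 0.0421) was lost in 7 of 12 refits.

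SQLE, the epoxidase that commits squalene to sterols, had 10947 and 11103 in the control, 12825 and 13878 in Cl1, and 8893 and 8806 in Cl10. The 3 groups did not overlap, with the control between the clones. Cl10 lay below the control (-0.31 ± 0.078, adjusted p = 0.0168, edgeR), Cl1 lay above it without passing the test (0.28 ± 0.12, adjusted p = 0.105), and the clones differed by -0.59 ± 0.062 (adjusted p = 7.32e-06). LSS, the cyclase of the next step, had 9123 and 8508 in the control, 10431 and 10999 in Cl1, and 11556 and 11019 in Cl10. All clone libraries exceeded the control. It was higher in Cl10 (0.36 ± 0.084, adjusted p = 0.0128, edgeR), and Cl1, at 0.28 ± 0.12, did not pass (adjusted p = 0.0943) and did not differ from Cl10 past the threshold (0.079 ± 0.061). Neighbouring steps thus had opposite signs in Cl10. TM7SF2, a sterol reductase, had 2831 and 3186 in the control, 4448 and 4697 in Cl1, and 3680.2 and 3429 in Cl10. The groups stood apart, the control lowest and Cl1 highest. It rose 1.52-fold in Cl1 (0.61 ± 0.11, adjusted p = 0.00209, edgeR) and was 0.25 ± 0.091 in Cl10 (adjusted p = 0.0661). CYP51A1, the lanosterol demethylase, passed only between the clones (-0.28 ± 0.071, adjusted p = 0.00639, edgeR). It shares 68.2% of its exon bases with another annotated gene on the same strand, and how reads common to both were counted is not given in the sources used here. FDFT1 and EBP, a sterol isomerase, did not pass in the 3 comparisons, with values between -0.15 and 0.26, but FDFT1 passed in 2 of them with its neighbours subtracted.

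**Figure D3:**
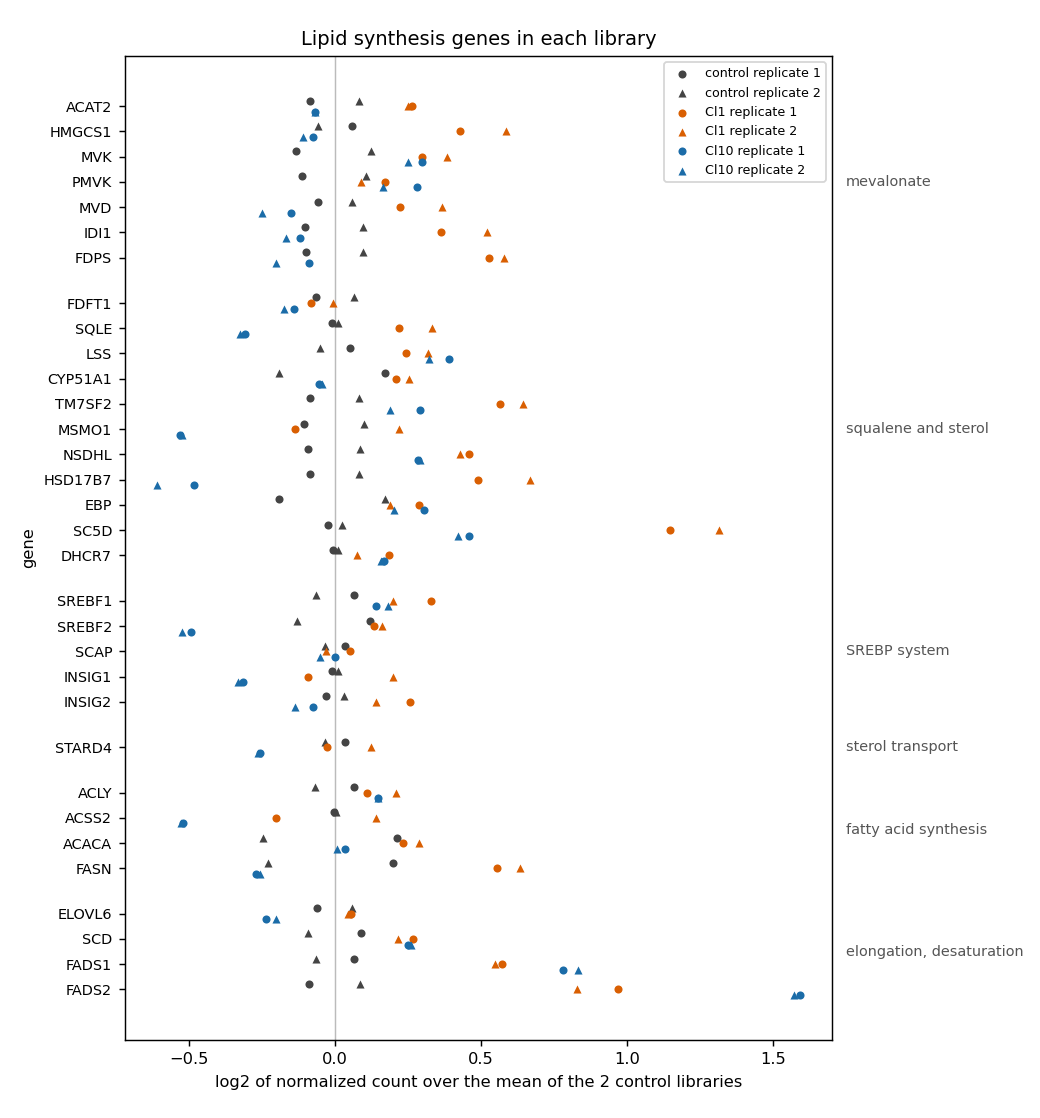
Normalized count of each gene in each library, as log2 of its ratio to the mean of the 2 control libraries, by role. Circles are replicate 1 and triangles replicate 2. SC5D and FADS2 form 3 separate levels, HSD17B7 has Cl1 above and Cl10 below the control, and ACACA and FASN have control libraries that lie far apart.

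Among the 5 regulators, no gene passed the test in Cl1, beside 12.4% higher and 12.8% lower among all genes tested. In Cl10 2 were lower, or 40% beside 21.8% of all genes, and between the clones 3, or 60% beside 24.1%. SREBF2, whose product SREBP2 drives the cholesterol genes above all (chr22:41833105-41907306, plus strand), had 19151 and 16126 in the control, 19363 and 19724 in Cl1, and 12527 and 12277 in Cl10. Both Cl10 libraries lay below the rest, and Cl1 lay just above the upper control. It fell by 0.50 on the log2 scale in Cl10 (SE 0.10, adjusted p = 0.00800, edgeR) and was 0.15 ± 0.13 in Cl1 (adjusted p = 0.435). Cl10 differed from Cl1 by -0.65 ± 0.059 (adjusted p = 2.04e-06). The 50 tested genes nearest to SREBF2 had a median of -0.51 in Cl10, and with that subtracted SREBF2 stood at 0.010 (adjusted p = 0.947). Between the clones these neighbours had a median of -0.37, and SREBF2 kept -0.28 with that subtracted (adjusted p = 0.00180, edgeR). SREBF1, whose product leans to fatty acid genes, did not pass anywhere, at 0.27, 0.16 and -0.10.

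INSIG1, which retains SCAP in the endoplasmic reticulum and is itself an SREBP target, had 8570.0 and 8700.1 in the control, 8104 and 9913 in Cl1, and 6938 and 6864 in Cl10. The 2 Cl1 libraries lay on either side of the control and both Cl10 libraries below it. It fell in Cl10 (-0.32 ± 0.077, adjusted p = 0.0150, edgeR) and was lower there than in Cl1 (-0.38 ± 0.082, adjusted p = 0.00197). INSIG2, its paralog, passed only between the clones (-0.30 ± 0.077, adjusted p = 0.00559, edgeR), and SCAP gave 0.012, -0.021 and -0.032, all within 1 SE of 0. STARD4, a cytosolic sterol carrier and another SREBP target, had 4173 and 3986 in the control, 4005 and 4445 in Cl1, and 3410.1 and 3398 in Cl10. The Cl10 libraries lay below all others. It was lower in Cl10 than in the control (-0.26 ± 0.078, adjusted p = 0.0346, edgeR) and than in Cl1 (-0.31 ± 0.064, adjusted p = 0.00160). The first of these calls was lost in DESeq2 (adjusted p = 0.0730).

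Of the 4 genes that build fatty acids, FASN rose in Cl1 and ACSS2 fell in Cl10. These are 25% each, beside 12.4% higher in Cl1 and 21.8% lower in Cl10 among all genes tested. FASN (chr17:82078338-82098294, minus strand) had 80663 and 59827 in the control, 103067 and 108888 in Cl1, and 58259 and 58758 in Cl10. The Cl1 libraries lay above all others, the control libraries lay far apart and the Cl10 libraries sat just under the lower control. The log2 fold change was 0.60 ± 0.16 in Cl1 (adjusted p = 0.0188, edgeR) and -0.26 ± 0.14 in Cl10 (adjusted p = 0.184). Between the clones it was -0.85 ± 0.065 (adjusted p = 5.44e-07, edgeR), a fold of 0.554. ACACA, the carboxylase that makes malonyl-CoA for FASN, had 10533 and 7669 in the control, 10681 and 11103 in Cl1, and 9325 and 9136 in Cl10. Its control libraries enclosed the Cl10 values, and only the difference between the clones passed (-0.23 ± 0.058, adjusted p = 0.00499, edgeR), which was lost in 3 of 12 refits.

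ACSS2, which makes acetyl-CoA from acetate, had 8310.3 and 8341 in the control, 7242 and 9178 in Cl1, and 5801 and 5769 in Cl10. The Cl1 libraries enclosed the control and the Cl10 libraries lay well below it. It fell by 0.52 on the log2 scale in Cl10 (SE 0.077, adjusted p = 0.00200, edgeR), against -0.018 ± 0.13 in Cl1 (adjusted p = 0.935). ACLY, which supplies the same acetyl-CoA from citrate, gave 0.16 for Cl1 and 0.15 for Cl10, and neither passed.

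The desaturases of polyunsaturated fatty acids were the members that rose most in Cl10. FADS2, the delta-6 desaturase (chr11:61792980-61867354, plus strand), had 914 and 1033 in the control, 1907 and 1729 in Cl1, and 2935 and 2893 in Cl10. The 3 groups did not overlap and rose from control to Cl1 to Cl10. The rise was 1.87-fold in Cl1 (log2 0.90 ± 0.12, adjusted p = 0.000183, edgeR) and 3.01-fold in Cl10 (1.59 ± 0.090, adjusted p = 7.19e-05). Cl10 exceeded Cl1 by 0.68 ± 0.066 (adjusted p = 3.81e-06, edgeR). FADS1, the delta-5 desaturase (chr11:61799627-61829318, minus strand), had 10091 and 9228 in the control, 14352 and 14129.8 in Cl1, and 16596 and 17171 in Cl10. It took the same order of groups, at 0.56 ± 0.12 in Cl1 (adjusted p = 0.00448, edgeR), 0.81 ± 0.088 in Cl10 (adjusted p = 0.000585) and 0.25 ± 0.059 between the clones (adjusted p = 0.00376). The per-length level of FADS2 was 8.78% and 10.9% of that of FADS1 in the control, 12.9% and 11.9% in Cl1, and 17.1% and 16.3% in Cl10. In GENCODE v44 FADS2 spans FADS1, which lies on the opposite strand, and they share 490 exon bases, 4.8% of those of FADS1.

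SCD, the most abundant member, had 152744 and 134711 in the control, 173012 and 166848 in Cl1, and 170964 and 172030.0 in Cl10. All 4 clone libraries lay above the control, at 0.24 ± 0.15 in Cl1 (adjusted p = 0.261, edgeR) and 0.26 ± 0.10 in Cl10 (adjusted p = 0.0739), and neither passed the test. ELOVL6, which lengthens the chains that FASN makes, passed only between the clones (-0.26 ± 0.058, adjusted p = 0.00224, edgeR). The summed normalized counts of the 4 genes, most of them from SCD, were 166908 and 148403 in the control, 192689 and 186102 in Cl1, and 193293 and 194957 in Cl10.

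The control libraries differed from each other more than the Cl10 libraries did. For the 32 genes, replicate 1 over replicate 2 ranged from 0.777 to 1.37 in the control, from 0.781 to 1.10 in Cl1 and from 0.966 to 1.09 in Cl10. The 3 highest control ratios were those of ACACA, FASN and CYP51A1. Their standard errors in Cl10 against control were 0.14, 0.14 and 0.13, beside 0.058, 0.065 and 0.071 between the clones.

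The 32 genes lie on 17 chromosomes, and some sit in stretches where many genes moved together. For each member, the median log2 fold change of the 50 nearest tested genes on its chromosome ranged from -0.25 to 0.47 in Cl1 and from -0.60 to 0.52 in Cl10. It passed 0.4 in either direction for FADS1 and FADS2 in Cl1, and for 6 members in Cl10. The neighbours of FADS2 stood at 0.47 and 0.50, and FADS2 remained past the threshold with these subtracted, at 0.43 (adjusted p = 0.0195, edgeR) and 1.09 (adjusted p = 0.000267). FADS1 kept 0.29 in Cl10 (adjusted p = 0.0356, edgeR) but only 0.12 in Cl1 (adjusted p = 0.490). SC5D, whose neighbours were at -0.093 in Cl1 and 0.00024 in Cl10, kept its values.

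Other members moved once their neighbours were subtracted. Between the clones FDFT1 went from -0.11 to -0.47 (adjusted p = 6.92e-05, edgeR) and PMVK from 0.096 to 0.41 (adjusted p = 0.000304), so that both passed. They also passed in Cl10, at -0.28 and 0.31, as did MVK at 0.42 and INSIG2 at -0.36, and in Cl1 SQLE passed at 0.39 and LSS at 0.49. ACAT2, at -0.064 in Cl10 among neighbours at -0.60, became 0.53 (adjusted p = 0.00377, edgeR). FASN in Cl10 moved from -0.26 to 0.27 (adjusted p = 0.168), and between the clones it kept -0.39 (adjusted p = 0.000371). MSMO1 and SQLE in Cl10 went to -0.27 and -0.22, with adjusted p of 0.0570 and 0.0593 from edgeR, and HSD17B7 in Cl1 to 0.33 (adjusted p = 0.0788). With the neighbours subtracted the members' counts were 11 higher in Cl1, 8 higher and 6 lower in Cl10, and 4 higher and 20 lower between the clones. The part of these chromosome stretches in the members' values was not tested further.

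**Figure D4:**
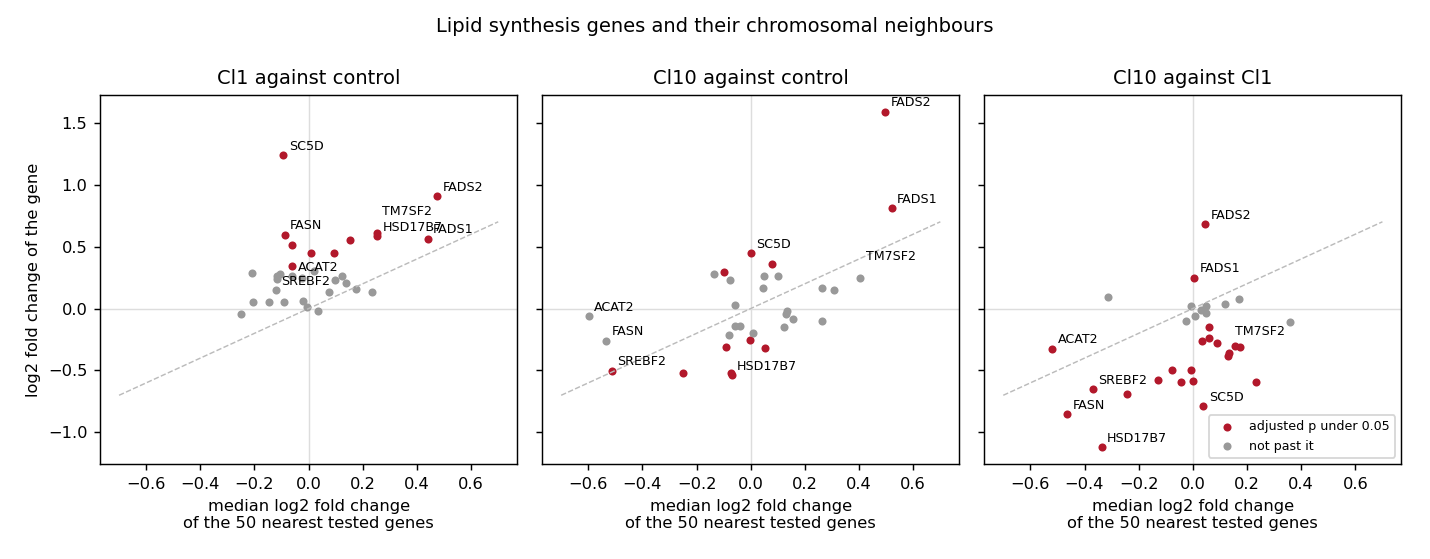
Log2 fold change of each of the 32 genes against the median of its 50 nearest tested genes on the chromosome, in the 3 comparisons. The dashed line marks equal values and red marks an adjusted p under 0.05. SREBF2 sits on the line in Cl10, SC5D lies far above it in Cl1, and FADS2 lies above neighbours that are themselves raised.

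Other genes of lipid metabolism were counted in lists by role. Of 11 tested genes for the other sterol steps and for cholesterol uptake, 3 were higher and 0 lower in Cl1, 2 and 2 in Cl10, and 1 and 8 in Cl10 against Cl1. The 27.3% higher in Cl1 stands beside 12.4% of all genes. In Cl10 the 18.2% each way was near the 20.6% and 21.8% of all genes. The last split, between the clones, 72.7% lower beside 24.1% of all genes, had the direction of the 32 members. Of 9 genes that process SREBP or degrade sterol-sensing proteins, 3 rose and 1 fell in Cl1, and the same numbers rose and fell in Cl10. These 33.3% higher stand beside 12.4% and 20.6% of all genes. Between the clones 2 were higher and 5 lower, or 55.6% lower beside 24.1%. SPRING1, which aids the cutting of SREBP, had 2443 and 2298 in the control, 2985 and 3217 in Cl1, and 3029 and 3028 in Cl10 and was higher by 0.39 ± 0.11 for Cl1 and by 0.36 ± 0.079 for Cl10 (adjusted p = 0.0199 and 0.0104, edgeR).

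Of the 8 genes of sterol efflux and of LXR, the receptor that answers to excess sterol, 2 were higher and 2 lower in Cl1. That is 25% each way, beside 12.4% and 12.8% of all genes. In Cl10 4 were higher and 0 lower, or 50% higher beside 20.6% of all genes. Between the clones 5 were higher and 0 lower in Cl10, or 62.5% higher beside 24.9% of all genes. LPCAT3, an LXR target that puts polyunsaturated chains into phospholipids, rose by 0.58 ± 0.11 in Cl1 (adjusted p = 0.00223, edgeR) and by 0.49 ± 0.081 in Cl10 (adjusted p = 0.00323). SMPDL3A, also an LXR target, was at 0.53 ± 0.15 and 0.86 ± 0.13, both past the test. Of 8 tested genes for sterol esters and oxysterols, 1 fell in Cl1, and 1 rose and 5 fell in Cl10, or 62.5% lower beside 21.8% of all genes. The 12.5% lower in Cl1 was near the 12.8% of all genes. Between the clones 7 were tested, with 1 higher and 3 lower in Cl10, or 42.9% lower beside 24.1%. SOAT2, which esterifies cholesterol, had 52.7 and 55.0 normalized counts in the control and at most 17.6 in each clone library, and fell in both clones (-1.84 ± 0.36 and -2.23 ± 0.32, adjusted p = 0.00256 and 0.00172, edgeR). Among 12 isoprenoid branch genes, 2 rose and 1 fell in Cl1 and 4 rose and 2 fell in Cl10, so that 16.7% and 33.3% rose beside 12.4% and 20.6% of all genes. Between the clones 6 were higher and 2 lower in Cl10 than in Cl1. These are 50% and 16.7%, beside 24.9% and 24.1% of all genes, so most of these calls went against the direction of the 32 members. NUS1, needed for dolichol synthesis, rose in both clones (0.60 ± 0.11 and 0.64 ± 0.077).

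Of 26 further fatty acid synthesis, elongation and activation genes, 3 rose and 1 fell in Cl1 and 8 rose and 4 fell in Cl10. The 11.5% higher in Cl1 was near the 12.4% of all genes, and the 30.8% higher in Cl10 stands beside 20.6%. Between the clones 10 were higher and 11 lower, 38.5% and 42.3% beside 24.9% and 24.1%. ACSL1, an acyl-CoA synthetase, rose in both clones (0.35 ± 0.12 and 0.56 ± 0.078), and ACSL5, of the same family, rose from 3 and 4 raw counts in the control to between 28 and 43 in the clone libraries. MID1IP1, an activator of acetyl-CoA carboxylase, had 5227 and 5176 in the control, 3461 and 3568 in Cl1, and 4113 and 3927 in Cl10 and fell in both (-0.56 ± 0.11 and -0.37 ± 0.078, adjusted p = 0.00244 and 0.00900, edgeR). Of 14 fatty acid oxidation genes, 3 rose and 0 fell in Cl1, 0 rose and 4 fell in Cl10, and 0 were higher and 9 lower in Cl10 than in Cl1. The 21.4% higher in Cl1 stands beside 12.4% of all genes and the 28.6% lower in Cl10 beside 21.8%, while the 64.3% lower between the clones, beside 24.1%, was close to the 62.5% of the 32 members. Of the genes for epidermal barrier lipids, 5 of 13 rose in Cl1 and 6 of 14 in Cl10, with 1 lower in each. These are 38.5% and 42.9%, beside 12.4% and 20.6% of all genes. Between the clones 4 were higher and 4 lower, or 28.6% each way, near the 24.9% and 24.1% of all genes. SPTLC3, of the enzyme that starts sphingolipid synthesis, had 265 and 286 in the control, 1206 and 1165 in Cl1, and 932 and 967 in Cl10, a 4.32-fold and 3.46-fold rise (adjusted p = 5.08e-07 and 7.62e-05, edgeR). ABCA12, the lipid transporter of keratinocytes, rose as well (1.03 ± 0.19 and 1.50 ± 0.20), and ALOXE3, a lipoxygenase of the barrier, fell (-1.06 ± 0.13 and -0.56 ± 0.11).

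**Figure D5:**
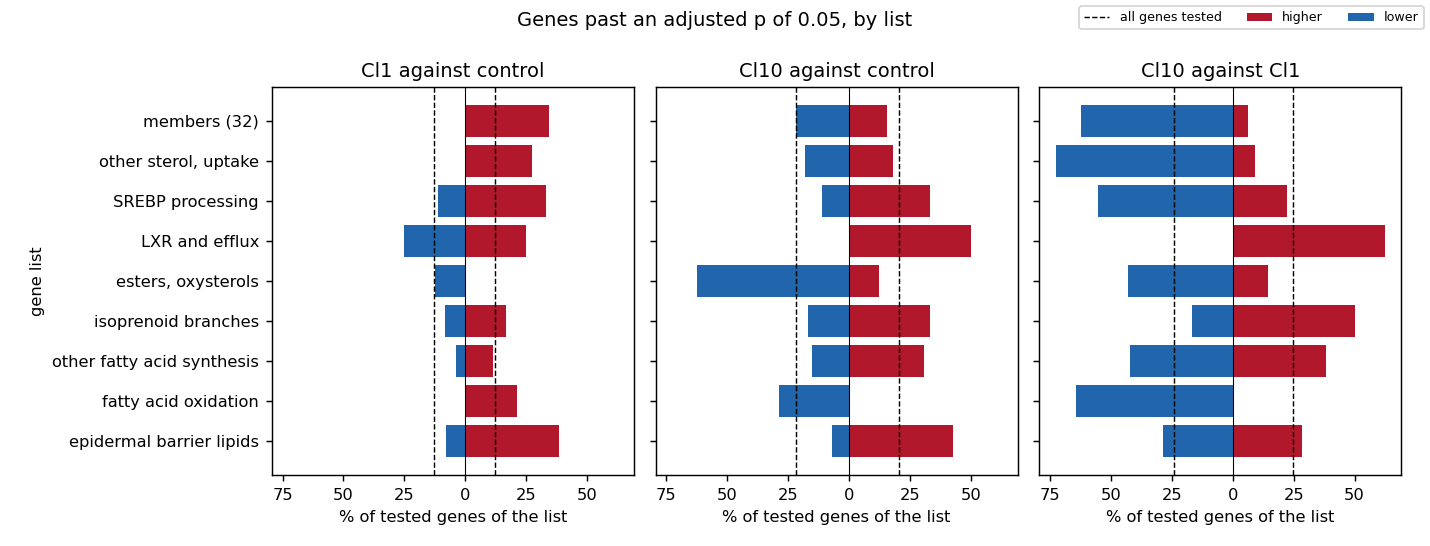
Share of the tested genes of each list that passed an adjusted p of 0.05, higher to the right in red and lower to the left in blue, in the 3 comparisons. Dashed lines mark the shares among all genes tested. The 32 members pass these lines on the higher side in Cl1 and on the lower side in Cl10 against Cl1, and stay near or inside them in Cl10 against control.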

How the data were processed

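Raw counts per gene were deposited by the authors, who used HISAT2 to align paired-end reads (hg38) and HTSeq to count them. StringTie and DESeq are also named in the submitters' processing notes. The labels name a stranded mRNA kit and the study's methods another kit, and the gene annotation, strand setting and treatment of ambiguous reads are not given in the sources used here. Columns were matched to samples by name. Of the identifiers, 58207 of 58735 were found in GENCODE v44, which gave positions and exon lengths. 4 further libraries, of a SOX2 knockout and its control, were not used here.

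Each comparison was fitted to its own 4 libraries with edgeR 4.0.16 in R 4.3.3 (filterByExpr, TMM, glmQLFit, glmQLFTest), with Benjamini-Hochberg adjustment over all genes tested and a threshold of 0.05. Standard errors were taken from each fold change and its F statistic, as the absolute value over √F. The study's methods speak of independent repeats for its guide RNA experiments in general, but no source says whether the 2 libraries of a group were separate cultures, so p-values measure the spread between libraries, which may be technical. The fit was tested before use on counts simulated for Cl1 against control, with changes larger than those of the members. Changes of the members' size were not simulated. Alternatives were DESeq2 1.42.0, other normalizations and filters, 1 fit over 6 libraries, a replicate block, subtraction of the local median (50 nearest genes) and leaving out each library. The members and lists were chosen with earlier results of these data known. All members were named, and from each other list at most 2 genes a direction, those past the threshold the same way in both clones with the largest smaller fold change. 1 such gene is not reported here.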

Additional observations from a re-analysis of the deposited data

Results flagged for a closer look

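For 22 of the 32 genes the level differed between the clones by the direct edgeR test of Cl10 against Cl1 (adjusted p under 0.05). Of the members, 62.5% were lower and 6.25% higher in Cl10, beside 24.1% and 24.9% of all 19818 genes tested. The values are log2 fold changes of Cl10 against Cl1 with their standard errors. In the mevalonate pathway they were ACAT2 (-0.32 ± 0.056), HMGCS1 (-0.60 ± 0.066), MVD (-0.49 ± 0.066), IDI1 (-0.58 ± 0.066) and FDPS (-0.69 ± 0.062). Among the squalene and sterol steps they were SQLE (-0.59 ± 0.062), CYP51A1 (-0.28 ± 0.071), TM7SF2 (-0.36 ± 0.062), MSMO1 (-0.57 ± 0.092), NSDHL (-0.15 ± 0.056), HSD17B7 (-1.12 ± 0.097) and SC5D (-0.79 ± 0.067). In the SREBP system they were SREBF2 (-0.65 ± 0.059), INSIG1 (-0.38 ± 0.082) and INSIG2 (-0.30 ± 0.077), and the sterol carrier was STARD4 (-0.31 ± 0.064). Fatty acid synthesis gave ACSS2 (-0.50 ± 0.089), ACACA (-0.23 ± 0.058) and FASN (-0.85 ± 0.065), and elongation and desaturation gave ELOVL6 (-0.26 ± 0.058), FADS1 (0.25 ± 0.059) and FADS2 (0.68 ± 0.066). With 2 libraries per group, no search for single libraries far from the others was made within groups.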

How the results depend on the processing

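With a log2 fold change above 1 also required, 1 member was higher in Cl1 and 1 in Cl10, and 1 was lower in Cl10 than in Cl1, while no member was lower in Cl10 than in the control or higher than in Cl1 (0 each). Leaving out single libraries gave 3 to 14 members higher and 0 lower in Cl1, 2 to 12 higher and 0 to 13 lower in Cl10, and 1 to 3 higher and 16 to 21 lower in Cl10 against Cl1. Subtracting the local median gave 8 higher in Cl10 and 4 higher in Cl10 against Cl1. The cause of these shifts was not tested. The other counts under DESeq2, other normalizations, filters, the joint fit and the block stayed within 1.5 times.

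With the replicate number as a block, 10 members were higher and 0 lower in Cl1, 6 and 5 in Cl10, and 2 and 19 in Cl10 against Cl1. The calls lost were MVK in Cl1 (adjusted p = 0.0654, edgeR), SQLE and STARD4 in Cl10 (0.0511 and 0.0862) and NSDHL between the clones (0.0515), and MVK in Cl10 was gained (0.0448). Libraries with the same number did not deviate together (correlations -0.068, -0.018 and 0.010), so the numbers were not taken as pairs.

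Signs turned 43 times over all members and refits, 41 of them for values not past the threshold in the main fit. Both others came under the local median (SREBF2 in Cl10 and ACAT2 between the clones). A turned value could pass in its refit, as ACAT2 in Cl10 did with the local median subtracted (0.53, adjusted p = 0.00377, edgeR). ACACA in Cl10 stood at 0.26 without control replicate 1 and at -0.19 without control replicate 2. With library size only, the turned values were MSMO1 -0.012, SCAP -0.058, INSIG1 -0.0034, STARD4 -0.016 and ELOVL6 -0.018 in Cl1 and MVK 0.0095, SCAP 0.040 and ACLY 0.062 in Cl10 against Cl1. DESeq2 turned ACLY 0.00047 between the clones, and fitting without a filter turned SCAP -0.0059 in Cl1. With the local median subtracted they were PMVK -0.099, FDFT1 0.21 and ACLY -0.013 in Cl1, ACAT2 0.53, TM7SF2 -0.16, DHCR7 -0.097, SREBF2 0.010, ACLY -0.15 and FASN 0.27 in Cl10, and ACAT2 0.20, LSS -0.092, DHCR7 -0.085 and SCD -0.031 between the clones. Leaving out single libraries, the ranges were FDFT1 -0.11 to 0.026, MSMO1 -0.13 to 0.22, SCAP -0.031 to 0.059, INSIG1 -0.085 to 0.20, STARD4 -0.020 to 0.13, ACSS2 -0.19 to 0.14 and ELOVL6 -0.010 to 0.11 in Cl1, ACAT2 -0.15 to 0.016, CYP51A1 -0.22 to 0.14, SCAP -0.060 to 0.0052 and ACACA -0.19 to 0.26 in Cl10, and EBP -0.039 to 0.074, DHCR7 -0.027 to 0.088, SCAP -0.083 to 0.0088, ACLY -0.060 to 0.032 and SCD -0.019 to 0.040 between the clones. With 2 libraries per group, small differences could not be told from the spread between libraries.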
